A study of Mus musculus with 56 samples.

Results

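The 10 genes described here carry out or control gluconeogenesis, the making of new glucose by the liver: Pck1, G6pc, Fbp1, Pcx, Slc37a4, Ppargc1a, Sik1, Crem, Creb3l3 and Gcgr. They were chosen by name, and their rows were found in the gene table, which holds 25415 genes, through the gene identifiers of the GENCODE annotation. RNA was sequenced from 56 livers of female C57BL/6J mice, 9 weeks old, held under 12 h of light per day and fed freely before the restriction. For 7 days food was given in the daytime only (daytime-restricted feeding, DRF) or in the nighttime only (nighttime-restricted feeding, NRF, the reference). Livers were taken every 4 h from ZT0 to ZT24 (zeitgeber time, ZT, counts hours from lights on). Each regimen had 4 animals at each time, which gave 14 groups and 28 libraries per regimen. The exact hours of food access are not stated in the labels, and the feeding phases were taken to lie 12 h apart.

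Between meals the pancreas releases glucagon, which binds its receptor on hepatocytes and raises cyclic AMP (cAMP). cAMP activates protein kinase A and, through the factor CREB and its coactivators, the transcription of gluconeogenic genes, whereas insulin after a meal restrains them. The clock proteins also act on the same pathway, so that light-entrained and meal-entrained signals can both reach it.

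Levels are given as scaled counts: whole counts were rebuilt from the deposited scores and multiplied by a factor, also rebuilt, for each library. Their sums lay between 888043 and 1115180 per library, so that 1 unit is close to 1 CPM. The rebuilt counts of genes that came out whole summed to between 165.5 and 391.5 M per library (M, mega). Correlations between replicates of a group across genes lay between 0.965 and 0.990, and the lowest involved NRF ZT16 replicate 3 and NRF ZT12 replicate 3. All 6 hepatocyte markers were present, with a summed scaled count between 84262 and 145973 per library. All 4 markers of T and B cells had means below 1, and 3 of 4 adipocyte markers and 4 of 5 markers of the exocrine pancreas are not among the genes of the table. The summed level of the 3 erythroid markers, hemoglobins included, had group medians between 579 at NRF ZT4 and 1523 at DRF ZT0, and its part in the results was not tested. In whole liver, fewer cells of a type and less RNA per cell cannot be told apart.

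All 10 genes were measured in every library. Divided by exon length, mean levels over the 56 libraries fell in the order Fbp1 (1262 scaled counts per kilobase), Pck1 (137), G6pc (79.6), Creb3l3 (52.2), Pcx (34.6), Gcgr (22.8), Slc37a4 (13.9), Ppargc1a (6.86), Sik1 (3.99) and Crem (0.747). The enzymes thus stood above the regulators, except that Creb3l3 exceeded Pcx. For Fbp1 the counts were too high for their wholeness to be judged, and for Pcx and Sik1 the exon length that made the counts whole (4637 and 4511 bases) differed from the annotated length (4753 and 5133 bases), so their places in this order are less certain.

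**Figure D1:**
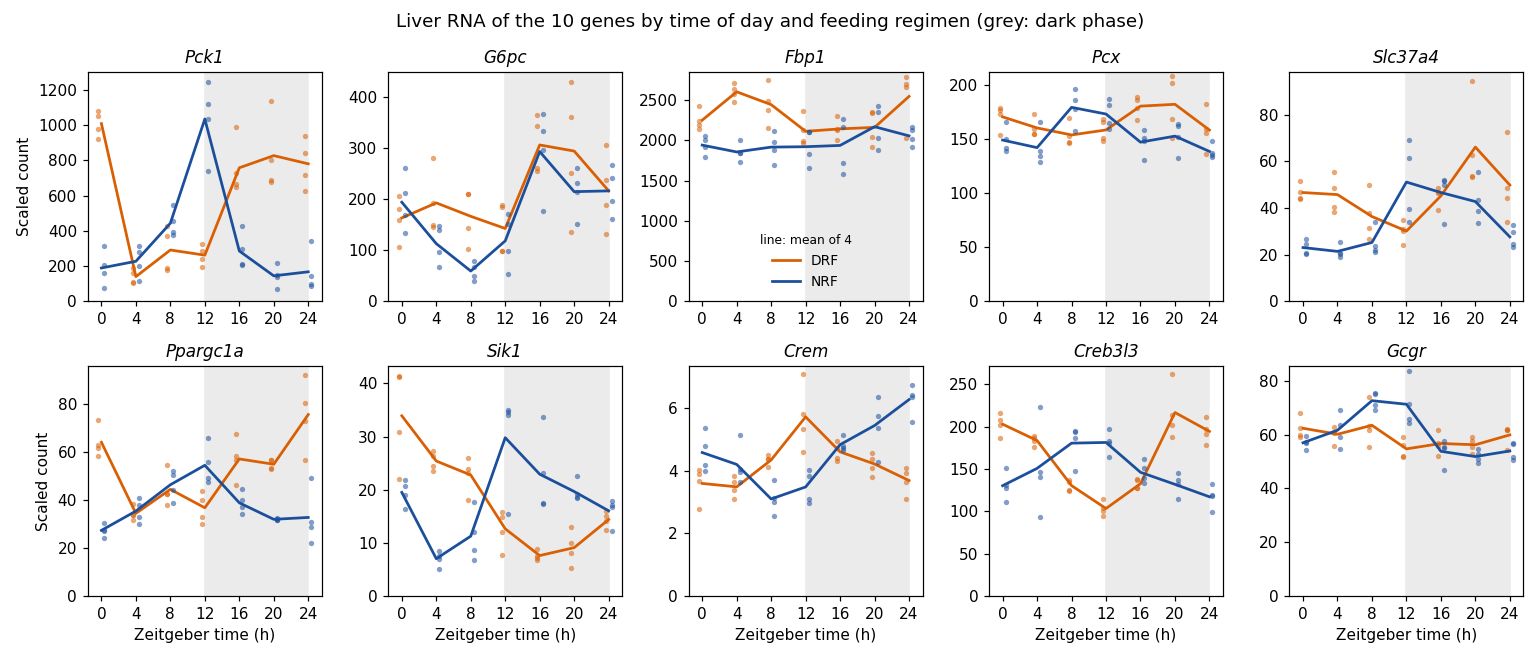
Scaled counts (vertical axes, from 0) of the 10 genes at each zeitgeber time (horizontal axes, h). Points are single livers, lines join the means of 4 livers, orange is DRF, blue is NRF and grey marks the dark phase. The highest Pck1 means lie at ZT0 for DRF and ZT12 for NRF, whereas G6pc was highest at ZT16 under both.

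Rhythms were tested with a 24-h cosine curve fitted by limma to log2(scaled count + 1), and p-values were adjusted over all genes by the Benjamini-Hochberg procedure. Under DRF 8 of the 10 genes were rhythmic, against 34.8% of all genes tested, and under NRF 9 of 10, against 43.1%. Of all genes tested, 54.1% had a mean scaled count of at least 1, as all 10 genes did. The shares over all genes given here and below therefore also count genes of lower level. A total of 7 were dual-oscillating, that is rhythmic under both regimens: Pck1, Pcx, Slc37a4, Ppargc1a, Sik1, Crem and Creb3l3. G6pc (adjusted p = 0.066) and Gcgr (adjusted p = 0.075) did not pass under DRF, and Fbp1 (adjusted p = 0.26) did not pass under NRF, all by limma. Fbp1 did pass under NRF with the values as deposited (0.0085) and with an exon length correction (0.028). The genes that passed had adjusted p-values between 3.0e-10 (Creb3l3) and 0.041 (Pcx) under DRF and between 9.6e-09 (Gcgr) and 0.0028 (Pcx) under NRF.

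The DRF and NRF curves were then compared in a pair of ways. The first test asked whether they differed at the same zeitgeber time, and 9 of the 10 genes did, against 38.5% of all genes. The second asked whether they differed after 1 of them had been moved by 12 h, so that the feeding phases lined up, and 6 of the 10 did, against 34% of all genes. The share over all genes depends on the setting. With an exon length correction 14125 of all 25414 genes passed the second test, against 8637 without it. No call of the 10 genes at this test changed with that correction. Ppargc1a, Sik1, Pcx and Fbp1 differed at the same zeitgeber time and did not pass the second test. With the values as deposited, before counts were rebuilt, Fbp1 (limma adjusted p = 0.0095), Pcx (4.8e-04) and Ppargc1a (0.011) passed the second test too and Gcgr (0.39) did not. Pck1, Slc37a4, Crem, Creb3l3 and Gcgr passed both tests, so neither alignment made their curves equal. G6pc passed only the second (limma adjusted p = 2.9e-06), with an adjusted p of 0.052 at the same zeitgeber time. That value lay next to the threshold, and it passed in 8 of 9 other settings (lowest adjusted p 0.023, against 0.10 without the ZT24 libraries) and without any 1 of 17 of the 56 libraries.

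**Figure D2:**
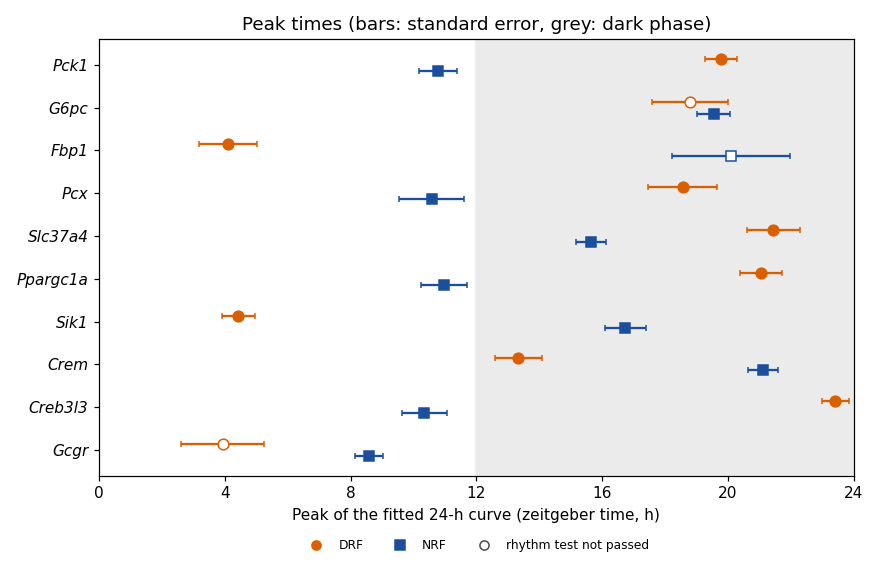
Peak of the fitted 24-h curve in zeitgeber time (horizontal axis, h) for each gene (vertical axis), with standard errors as bars. Orange circles are DRF, blue squares NRF, open symbols a rhythm that did not pass the test, and grey marks the dark phase. The G6pc symbols lie together near ZT19, whereas those of Sik1, Creb3l3, Ppargc1a and Pck1 lie 9 to 12 h apart.

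Pck1 encodes cytosolic phosphoenolpyruvate carboxykinase, which turns oxaloacetate into phosphoenolpyruvate and is induced by glucagon and fasting. Under NRF it was highest at ZT12, with scaled counts of 740, 1245, 1121 and 1036 in the 4 livers, and lowest at ZT20, with 141, 73.0, 216 and 151. Under DRF it was highest at ZT0, with 924, 980, 1053 and 1081, and lowest at ZT4, with 111, 160, 102 and 190. In both regimens every liver at the highest time exceeded every liver at the lowest time. These times were picked by their means in the same livers, which favours such a gap, so it is a description. The means differed 7.14-fold under NRF and 7.18-fold under DRF. The highest mean thus fell at the light-dark transition that opens the feeding phase in each regimen. Read at ZT24, however, the same transition under DRF had a mean of 781 ± 138 (SD, n = 4), below 828 ± 215 at ZT20. At 4 h after the transition the mean was 286 ± 105 under NRF and 141 ± 41.5 under DRF.

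The approach to that peak differed in shape between the regimens. Under NRF the means were 228 ± 89.8 at ZT4 and 444 ± 77.5 at ZT8 (SD, n = 4), whereas at the matching feeding phases under DRF, ZT16 and ZT20, they were 758 ± 160 and 828 ± 215. The fitted peak therefore lay at ZT19.8 ± 0.51 (SE) under DRF and at ZT10.8 ± 0.59 under NRF, a shift of 9.01 ± 0.78 h. The curves differed at the same zeitgeber time (limma adjusted p = 3.1e-10) and after moving them by 12 h (0.0092).

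G6pc encodes the catalytic subunit of glucose-6-phosphatase, the enzyme that releases free glucose at the end of the pathway. Unlike Pck1, it was highest at ZT16 under both regimens, with 176, 333, 297 and 367 under NRF and 261, 256, 343 and 364 under DRF. At ZT8 the NRF livers had 40.9, 68.2, 49.8 and 78.7, and the DRF livers had 143, 102, 210 and 210. At ZT8 the regimens differed by 1.46 ± 0.34 on the log2 scale (SE, limma adjusted p = 0.0023), with no overlap of livers. No other time passed, although ZT4 did with a replicate block (0.78, adjusted p = 0.044). The fitted peaks were ZT18.8 ± 1.21 under DRF and ZT19.5 ± 0.52 under NRF, 0.76 ± 1.31 h apart. The fitted amplitude was 0.43 ± 0.15 under DRF and 1.02 ± 0.15 under NRF (log2 units, SE).

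The contrast between both enzymes is seen when the DRF values are moved by 12 h. At the NRF time ZT8, late in the fast, the mean of Pck1 was 444 ± 77.5 (SD, n = 4) while G6pc was at its lowest mean, 59.4 ± 17.2. At the matching feeding phase under DRF, ZT20, G6pc had a mean of 294 ± 129, from livers at 251, 135, 430 and 361. Across the 14 group means of log2(scaled count + 1), Pck1 was most like Ppargc1a among the other 9 genes (Pearson's r = 0.93), and G6pc was most like Slc37a4 (r = 0.54). These correlations are a description over group means that share libraries.

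**Figure D3:**
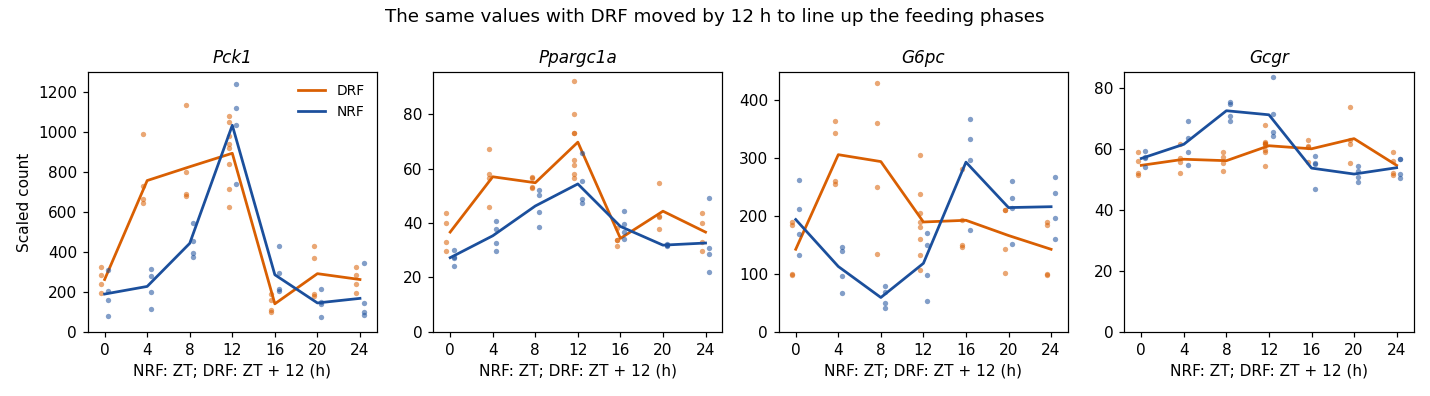
Scaled counts (vertical axes, from 0) of 4 genes against zeitgeber time for NRF and zeitgeber time plus 12 h for DRF (horizontal axes, h), which lines up the feeding phases. Points are single livers and lines join means, DRF ZT0 and ZT24 both fall at 12 h, and the DRF ZT12 livers are drawn at both ends. Pck1 and Ppargc1a are highest at 12 h in both regimens, whereas the G6pc lines are far apart at 4 and 8 h.

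The sequences upstream of Pck1, Ppargc1a and G6pc are shown. cAMP acts on Pck1 and Ppargc1a through the cAMP response element (CRE), bound by CREB. Whether any motif bears on the peak times of these 3 genes was not tested. RefSeq promoter windows (GRCm38.p6) were found for 8 of the 10 genes, all except Sik1 and Crem. The 250 bases before the RefSeq start were searched on both strands for the CRE half-site TGACG (reverse complement CGTCA), the full CRE TGACGTCA, the E-box CACGTG bound by clock factors, and the forkhead motif TGTTTAC. A full CRE contains the half-site. The half-site was present in 17.8% of all 32851 windows of this length, the full CRE in 1.55%, the E-box in 6.02% and the forkhead motif in 3.17%. Counted by gene, in any window of a gene, these shares were 19.8%, 1.77%, 6.86% and 3.54% of 27025 genes. Capitals mark the half-site, and each sequence runs 5′ to 3′ and ends before the start of the gene in GENCODE.
Pck1, chr2:173152823-173153047, plus strand: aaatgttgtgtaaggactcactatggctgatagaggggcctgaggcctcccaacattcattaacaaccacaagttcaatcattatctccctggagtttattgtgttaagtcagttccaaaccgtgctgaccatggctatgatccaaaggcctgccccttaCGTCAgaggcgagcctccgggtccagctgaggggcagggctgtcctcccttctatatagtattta
Ppargc1a, chr5:51567727-51567975, minus strand: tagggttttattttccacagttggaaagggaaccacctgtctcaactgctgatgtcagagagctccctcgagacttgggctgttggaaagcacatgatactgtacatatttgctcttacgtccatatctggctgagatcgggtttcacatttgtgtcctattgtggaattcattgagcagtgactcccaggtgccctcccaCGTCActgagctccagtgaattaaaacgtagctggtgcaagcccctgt
G6pc, chr11:101367466-101367560, plus strand: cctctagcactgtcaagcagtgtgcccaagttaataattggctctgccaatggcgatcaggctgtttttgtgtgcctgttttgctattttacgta

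Counted back from the RefSeq start, which lies downstream of the printed stretches, the half-site lay 90 to 86 bases before the start of Pck1 and 49 to 45 bases before that of Ppargc1a, on the reverse strand in both. Slc37a4, which has 3 RefSeq starts, held it in 2 of its windows, and Creb3l3, which has 2 starts, in 1. None of the 4 motifs was found in the windows of G6pc, Fbp1 and Gcgr, and an E-box was found in 1 of the 2 windows of Pcx. No window of the 8 genes held the full CRE or the forkhead motif. A match says only that these letters occur in this window. A lack of one says only that these exact letters do not, since variant forms of the sites were not searched. For G6pc the printed stretch holds 95 of the 250 bases searched.

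Fbp1 encodes fructose-1,6-bisphosphatase, which bypasses the irreversible phosphofructokinase step of glycolysis. Its group means varied little, lying between 2114 ± 181 (ZT12) and 2605 ± 99.8 (ZT4) under DRF (SD, n = 4) and between 1857 ± 112 (ZT4) and 2171 ± 261 (ZT20) under NRF. At ZT4 the DRF livers had 2639, 2482, 2719 and 2578 and the NRF livers 1850, 2001, 1850 and 1727, without overlap. The difference was 0.49 ± 0.10 on the log2 scale (SE, limma adjusted p = 0.00022), and the daily mean was higher under DRF by 0.23 ± 0.04 (adjusted p = 2.1e-05). On the values as deposited, the DRF rhythm of Fbp1 (adjusted p = 0.38) and its difference at the same zeitgeber time (0.39) no longer passed.

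Pcx encodes pyruvate carboxylase, which supplies oxaloacetate inside mitochondria. Under NRF it was highest at ZT8, with 178, 186, 158 and 196, and lowest at ZT24, with 148, 137, 133 and 135. Under DRF it was highest at ZT20, with 150, 208, 201 and 168, and lowest at ZT8, with 146, 153, 169 and 147, so that these DRF livers overlapped. The fitted peaks lay at ZT18.6 ± 1.11 under DRF and ZT10.6 ± 1.03 under NRF, 7.98 ± 1.51 h apart. With a peak-to-trough range this small the rhythm calls were fragile: by Kendall's exact rank test on cosine templates neither passed (adjusted p = 0.092 under DRF and 0.13 under NRF), and the DRF call was lost without any 1 of 10 libraries (adjusted p 0.055 to 0.12).

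Slc37a4 encodes the transporter that carries glucose-6-phosphate into the endoplasmic reticulum, where the G6pc enzyme works. Under NRF its means were 25.2 ± 5.85 at ZT8 and 51.1 ± 16.8 at ZT12 (SD, n = 4), and they stayed at 46.6 ± 9.05 at ZT16. Under DRF it was highest at ZT20, with 53.2, 53.8, 94.5 and 62.7, and lowest at ZT12, with 30.9, 30.3, 34.9 and 24.3. At ZT0 the 4 DRF livers had 51.5, 46.8, 44.0 and 44.1 and the NRF livers 20.1, 26.7, 24.8 and 20.6, a difference of 0.99 ± 0.21 on the log2 scale (SE, limma adjusted p = 4.2e-04). Its peak moved by 5.80 ± 0.97 h, from ZT15.6 ± 0.49 under NRF to ZT21.4 ± 0.84 under DRF. This shift lay between those of G6pc and Pck1, and the transporter passed the tests at both alignments (adjusted p = 2.2e-06 at the same zeitgeber time and 1.9e-05 at the same feeding phase).

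Ppargc1a encodes PGC-1α, a coactivator that CREB induces in fasting and that drives gluconeogenic and mitochondrial genes. Under NRF it was highest at ZT12, with 55.6, 65.7, 47.4 and 48.9, and lowest at ZT0, with 30.3, 24.1, 27.6 and 27.1. Under DRF it was highest at ZT24, with 73.0, 80.3, 92.1 and 56.7, and lowest at ZT4, with 31.6, 38.3, 33.8 and 33.8. The peak moved by 10.1 ± 0.99 h, and after the 12-h move the curves did not differ past the threshold (limma adjusted p = 0.30). Its amplitude was alike in size, 0.42 ± 0.07 under DRF and 0.41 ± 0.07 under NRF (log2 units, SE), and its daily mean was higher under DRF by 0.34 ± 0.07 (adjusted p = 0.0015).

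Sik1 encodes salt-inducible kinase 1, which is itself induced by cAMP and holds CREB coactivators out of the nucleus. Its rhythm showed the widest shift of the 10 genes, 11.7 ± 0.83 h, from ZT16.7 ± 0.65 under NRF to ZT4.43 ± 0.52 under DRF. At ZT4 the DRF livers had 23.5, 27.2, 24.5 and 26.4 and the NRF livers 8.41, 5.13, 6.93 and 7.54. At ZT16 the order was turned, with 6.79, 7.21, 7.56 and 8.80 under DRF and 17.5, 17.4, 33.6 and 23.2 under NRF. The differences were 1.74 ± 0.24 and -1.43 ± 0.24 on the log2 scale (SE, limma adjusted p = 4.3e-07 and 2.6e-05), and the livers did not overlap at either time. Under NRF the highest mean of Sik1 fell at ZT12, as that of Pck1 did, with livers at 15.4, 34.7, 35.1 and 34.0, of which the first stood far below the rest.

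ZT0 and ZT24 are the same time of day, and they served as a control. Under DRF only Sik1 among the 10 genes differed between them, against 3.23% of all genes, with 22.1, 30.8, 41.3 and 41.4 at ZT0 and 14.1, 12.4, 16 and 15 at ZT24. ZT24 was lower by 1.15 ± 0.24 on the log2 scale (SE, limma adjusted p = 0.0057), and the livers did not overlap. Under NRF only Crem differed, against 7.96% of all genes, and ZT24 was higher by 0.39 ± 0.10 (adjusted p = 0.013). Values of Sik1 at the light-dark boundary under DRF, and of Crem under NRF, thus depend on which of the 2 samplings is read.

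Crem encodes the cAMP response element modulator, whose short forms repress CRE-driven genes. It was the least abundant of the 10. Under NRF it was lowest at ZT8, with 3.15, 3.0, 3.72 and 2.54, and highest at ZT24, with 5.57, 6.43, 6.36 and 6.76. Under DRF it was lowest at ZT4, with 3.38, 3.65, 3.08 and 3.83, and highest at ZT12, with 5.34, 5.83, 4.62 and 7.11. Crem was therefore highest at the end of the feeding phase in both regimens, when Pck1 was low. Under NRF this rests on ZT24, because at ZT0 the mean was 4.59 ± 0.62 (SD, n = 4), below 5.45 ± 0.88 at ZT20. Across the 14 group means the log2 levels of Crem ran against those of Gcgr (r = -0.83) and Creb3l3 (r = -0.81). The peaks were 7.78 ± 0.89 h apart, at ZT13.3 ± 0.74 under DRF and ZT21.1 ± 0.49 under NRF, and the curves differed at both alignments (limma adjusted p = 3.8e-09 and 6.0e-04). The gene table does not separate the forms of Crem, so no form is given a level.

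Creb3l3 encodes CREBH, a liver-enriched factor of the CREB3 family that is released from the endoplasmic reticulum membrane and acts in fasting. It had the smallest adjusted p of the 10 genes for a rhythm difference at the same zeitgeber time (limma, 2.0e-12). At ZT12 the DRF livers had 94.5, 114, 104 and 100 and the NRF livers 181, 197, 184 and 164. At ZT20 they had 188, 263, 213 and 203 under DRF and 114, 145, 132 and 137 under NRF, so that the order was turned without overlap at either time. Its peak lay at ZT23.4 ± 0.44 under DRF and ZT10.3 ± 0.71 under NRF, 10.9 ± 0.84 h apart. The amplitude was 0.48 ± 0.05 under DRF and 0.29 ± 0.05 under NRF (log2 units, SE), and after the 12-h move the adjusted p was 0.040, which rose to between 0.052 and 0.074 without any 1 of 11 libraries and to 0.052 without both libraries least like their group.

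Gcgr encodes the glucagon receptor, the entry of the cAMP signal into hepatocytes. Under NRF it was higher at the end of the light phase, with 71.0, 74.9, 69.1 and 75.3 at ZT8 and 71.4, 64.4, 83.5 and 65.7 at ZT12, than at ZT20, with 49.3, 50.8, 54.5 and 52.7. Under DRF the group means stayed between 54.7 ± 3.48 (ZT12) and 63.4 ± 7.67 (ZT8; SD, n = 4). The amplitude was 0.25 ± 0.03 under NRF and 0.08 ± 0.03 under DRF (log2 units, SE). At ZT12, where the DRF livers had 51.5, 58.9, 56.1 and 52.1, the regimens differed by -0.37 ± 0.07 (limma adjusted p = 2.6e-04), a call that was lost with the values as deposited (0.11). At ZT8 the test was not passed, but it was without DRF ZT8 replicate 3 (0.012) or NRF ZT12 replicate 3 (0.048) and without both libraries least like their group (0.034). The curves differed at the same zeitgeber time (limma adjusted p = 2.3e-05) and at the same feeding phase (5.2e-06), so neither alignment made them equal. The fitted peaks lay at ZT3.93 ± 1.31 (SE) under DRF and ZT8.59 ± 0.45 under NRF, 4.66 ± 1.39 h apart. The highest group mean fell at ZT8 under both regimens. The DRF rhythm of Gcgr did not pass (limma adjusted p = 0.075). It passed without NRF ZT12 replicate 3 (adjusted p = 0.046), NRF ZT16 replicate 3 (0.0499), DRF ZT4 replicate 3 (0.041) or DRF ZT16 replicate 3 (0.035), and with both NRF libraries left out (0.029).

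**Figure D4:**
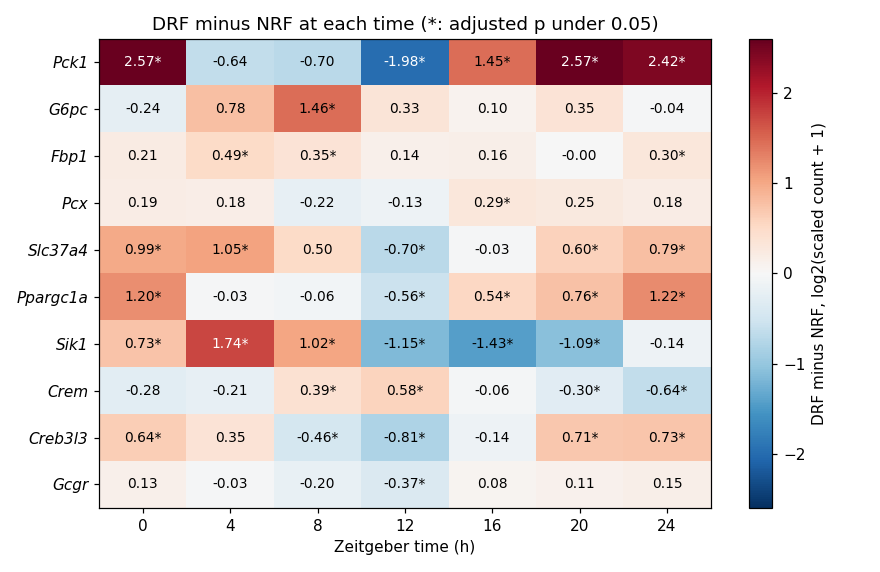
DRF minus NRF on the log2(scaled count + 1) scale for each gene (vertical axis) at each zeitgeber time (horizontal axis, h). Red is higher under DRF, blue is lower, and an asterisk marks an adjusted p under 0.05. Pck1, Ppargc1a and Creb3l3 are red at ZT0, ZT20 and ZT24 and blue at ZT12, and Sik1 is red from ZT0 to ZT8 and blue from ZT12 to ZT20.

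At single times, 36 of the 70 gene-time pairs differed between regimens by limma, 25 higher and 11 lower under DRF. In the light phase 5 of 10 genes differed at ZT0 (16.1% of all genes), 3 at ZT4 (20.2%) and 5 at ZT8 (13%). The count was 7 at ZT12 (15.1%), 4 at ZT16 (15%), 6 at ZT20 (13.7%) and again 6 at ZT24, against 14% of all genes. At ZT12, which closes the light phase, 6 genes were lower under DRF (Pck1, Slc37a4, Ppargc1a, Sik1, Creb3l3 and Gcgr) and Crem was higher. Of these, Slc37a4 also lost its call without DRF ZT12 replicate 4, NRF ZT12 replicate 3 or NRF ZT12 replicate 4 (adjusted p 0.071 to 0.094), and Ppargc1a without DRF ZT12 replicate 4 or NRF ZT12 replicate 2 (0.051 to 0.052). At ZT0 all 5 that differed were higher under DRF: Pck1, Slc37a4, Ppargc1a, Sik1 and Creb3l3. The largest difference was that of Pck1 at ZT20, 2.57 ± 0.36 on the log2 scale (SE, adjusted p = 7.7e-07). Of the 36 calls, 26 stayed past the threshold whichever single library was left out. With the values as deposited 9 of the 36 were lost, at adjusted p-values from 0.053 to 0.46: Fbp1 at ZT8 and ZT24, Slc37a4 at ZT12 and ZT20, Ppargc1a at ZT12 and ZT16, Gcgr at ZT12, Pcx at ZT16 and Crem at ZT20.

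Daily means, given by the level of the fitted curve, were higher under DRF for 4 of the 10 genes, against 4.16% of all genes, and lower for none, against 2.64%. With unadjusted p-values under 0.05 the limma counts were 6 higher and 0 lower, against 2490 and 2448 of all 25414 genes tested. The 4 genes that passed after adjustment were Fbp1, Ppargc1a, Slc37a4 (0.36 ± 0.08 on the log2 scale, adjusted p = 0.0031) and Pck1 (0.56 ± 0.18, 0.045). The call for Pck1 was lost without any 1 of 33 libraries (adjusted p 0.0501 to 0.078), without the ZT24 libraries (0.083) and with a replicate block (0.052). G6pc, at 0.43 ± 0.14 (adjusted p = 0.054), passed without any 1 of 15 libraries (lowest adjusted p 0.029) and with a replicate block (0.026).

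The shifts of the 7 dual-oscillating genes had a median of 9.01 h, and Pck1, Ppargc1a, Sik1 and Creb3l3 were phase-inverted, meaning that their peaks lay 8 to 12 h apart. Among all 5887 dual-oscillating genes the median was 8.14 h, 50.9% were phase-inverted and 24.4% were phase-locked, with peaks at most 4 h apart. None of the 7 was phase-locked. Fitted to scaled counts in place of their logarithms, peaks were 0.60 h apart for G6pc, 5.77 h for Slc37a4, 9.17 h for Pck1 and 11.9 h for Sik1. On that scale Pcx, at 8.12 h in place of 7.98 h, crossed the 8-h limit, which made 5 of the 7 phase-inverted in place of 4.

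**Figure D5:**
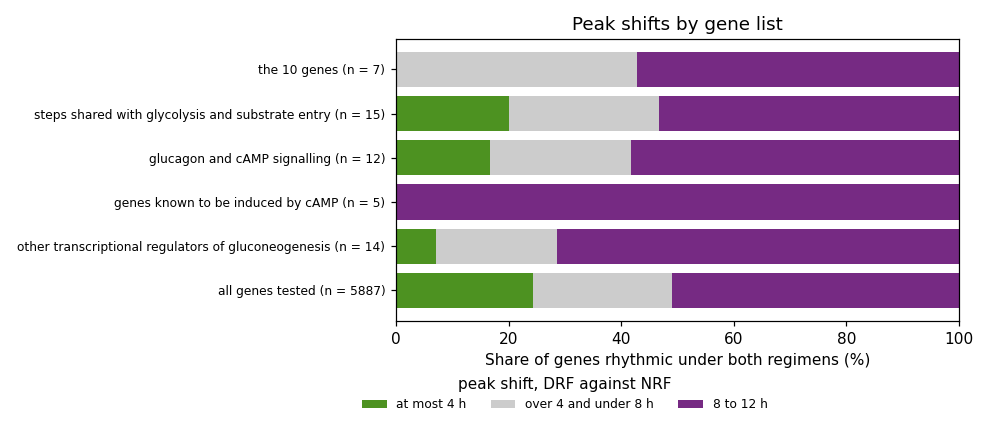
Share of the genes rhythmic under both regimens (horizontal axis, %) whose peaks lay at most 4 h, over 4 and under 8 h, or 8 to 12 h apart, for the 10 genes, the wider lists and all genes tested (vertical axis, with the number of dual-oscillating genes). In every row the largest segment is the one of 8 to 12 h, and the 10 genes and the cAMP-induced genes have no segment of at most 4 h.

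Wider lists were counted to place the 10 genes. Of 25 genes of the steps shared with glycolysis and of substrate entry, 18 differed in rhythm at the same zeitgeber time (72%, against 38.5% of all genes) and 12 at the same feeding phase (48%, against 34%). The glucose transporter gene Slc2a2 (GLUT2) peaked at ZT22.2 ± 0.48 under DRF and ZT12.3 ± 0.36 under NRF, close to Ppargc1a. Slc16a1 (MCT1), a carrier of lactate and pyruvate, moved by 11.7 ± 0.72 h. Gpt2, a mitochondrial alanine transaminase that feeds alanine carbon into pyruvate, moved by only 4.61 ± 0.81 h, much as Slc37a4 did, and the glycolytic gene Pgk1 by 7.17 ± 1.12 h. Phase-locked genes of this list were Pgam1 (3.97 ± 0.97 h), Pfkfb1 (2.24 ± 0.94 h), which sets fructose-2,6-bisphosphate, and G6pc3 (3.45 ± 1.36 h), a ubiquitous relative of G6pc.

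In the same list 14 of 25 genes had a higher daily mean under DRF, against 4.16% of all genes. A lower one was found for 0, against 2.64%. The median difference was 0.17 on the log2 scale, against -0.0017 over all genes. With unadjusted p under 0.05 the limma counts were 19 higher and 0 lower, against 2490 and 2448 of all 25414 genes. Gpt2 was higher by 0.56 ± 0.07 (SE, adjusted p = 4.5e-08), Pgk1 by 0.22 ± 0.04 (2.7e-04), Pfkfb1 by 0.25 ± 0.05 (0.0017) and Pgam1 by 0.21 ± 0.04 (7.3e-04).

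Of 33 genes of glucagon and cAMP signalling, 21 differed at the same zeitgeber time (63.6%, against 38.5% of all genes). At the same feeding phase 12 differed (36.4%), a share near the 34% of all genes. Daily means were higher under DRF for 4 (4.16% of all genes) and lower for 2 (2.64%). Prkar2a, a regulatory subunit of protein kinase A, peaked at ZT13.0 ± 0.40 under DRF and ZT20.3 ± 0.22 under NRF, near the times of Crem. The adenylyl cyclase gene Adcy9 peaked at ZT18.8 ± 0.27 and ZT9.03 ± 0.41, a shift of 9.74 ± 0.49 h like that of Pck1. Sik2, a relative of Sik1, peaked at ZT19.8 ± 0.40 and ZT9.38 ± 1.22, when Sik1 was low, and Adcy6 had a fitted shift of 10.7 ± 1.45 h although its DRF rhythm did not pass (adjusted p = 0.065). Phase-locked were Adcy5 (3.0 ± 1.36 h) and the CREB coactivator gene Crtc1 (0.74 ± 1.02 h).

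Of 14 genes known to be induced by cAMP, 13 were in the table, and 11 differed at the same zeitgeber time (84.6%, against 38.5% of all genes). At the same feeding phase 3 differed (23.1%), a share below the 34% of all genes. All 5 that were dual-oscillating were phase-inverted, against 50.9% of all dual-oscillating genes. Pdk4, which restrains pyruvate oxidation, peaked at ZT9.82 ± 0.69 under DRF and ZT23.3 ± 0.43 under NRF, and not with Pck1. The clock gene Per1 peaked at ZT1.18 ± 1.27 and ZT13.3 ± 0.44, Junb at ZT21.0 ± 0.93 and ZT7.86 ± 0.54, and Irs2, which carries the insulin signal, at ZT18.1 ± 0.61 and ZT4.79 ± 0.71. No gene of this list had a changed daily mean, against 4.16% of all genes higher and 2.64% lower. With unadjusted p under 0.05 the limma counts were 1 higher and 1 lower, against 2490 and 2448 of all 25414 genes.

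Of 19 other regulators of gluconeogenesis, 15 differed at the same zeitgeber time (78.9%, against 38.5% of all genes) and 11 at the same feeding phase (57.9%, against 34%). None had a changed daily mean, against 4.16% of all genes higher and 2.64% lower. With unadjusted p under 0.05 the limma counts were 1 higher and 0 lower, against 2490 and 2448 of all 25414 genes. Cry1, a clock repressor that also restrains cAMP production, peaked at ZT9.33 ± 0.31 under DRF and ZT19.6 ± 0.20 under NRF, and Nr1d1 (REV-ERBα) at ZT20.8 ± 0.44 and ZT7.92 ± 0.19. Ppara, the fatty acid receptor of fasting, moved by 11.6 ± 0.63 h and Foxo3 by 11.1 ± 0.89 h. The only phase-locked gene of this list was Prkaa1, a catalytic subunit of AMP-activated protein kinase, which peaked at ZT17.6 ± 0.73 under DRF and ZT16.5 ± 0.59 under NRF.

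For each of the 10 genes, the genes with the likest pattern were sought over the 14 group means of log2(scaled count + 1), among genes with a mean scaled count of at least 1. Pck1 was nearest to Slc38a4 (r = 0.97), which encodes an amino acid transporter, Lpin2 (0.95) and Zfp276 (0.95), and Ppargc1a to Cpsf4l (0.93), Slc38a4 (0.93) and Fnip2 (0.93). G6pc had lower values, with Ube4a (0.87), Sfxn1 (0.86) and Gm5424 (0.85), whose fitted peaks lay between ZT17.5 and ZT20.2 in both regimens. Genes like Fbp1 included Cmbl (0.88) and Aqp4 (0.85). Slc37a4 was nearest to Gpt2 (0.94) and Fh1 (0.93), and Pcx to Fam234a (0.95), Pccb (0.93) and Glmp (0.93). Among the regulators, Sik1 was nearest to Ppp1r3e (0.90), Gm25313 (0.89) and Adh7 (0.87), Crem to Pnpt1 (0.96), Zfp560 (0.92) and Tirap (0.91), Creb3l3 to Gna12 (0.96), Slc2a5 (0.96) and Pdp2 (0.94), and Gcgr to Mta1 (0.95), Dctn2 (0.94) and Nagk (0.94). These are the highest values of many correlations over 14 points and are given as a description.

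In GRCm38 coordinates of GENCODE M21, Pck1 (ENSMUSG00000027513) lies at chr2:173153048-173159273 on the plus strand, G6pc (ENSMUSG00000078650) at chr11:101367561-101377903 on the plus strand and Ppargc1a (ENSMUSG00000029167) at chr5:51454250-51567726 on the minus strand. Fbp1 (ENSMUSG00000069805) lies at chr13:62864753-62888282 on the minus strand, Pcx (ENSMUSG00000024892) at chr19:4510472-4621752 on the plus strand and Slc37a4 (ENSMUSG00000032114) at chr9:44396852-44402968 on the plus strand. Sik1 (ENSMUSG00000024042) lies at chr17:31844250-31855804 on the minus strand, Creb3l3 (ENSMUSG00000035041) at chr10:81084324-81098874 on the minus strand, Gcgr (ENSMUSG00000025127) at chr11:120530699-120538986 on the plus strand and Crem (ENSMUSG00000063889) at chr18:3266048-3337748 on the minus strand. Values are per gene, over all annotated exons.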

How the data were processed

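RNA of 56 mouse livers was depleted of ribosomal RNA and sequenced as strand-specific paired-end libraries, although the molecule field of the labels names polyA RNA. The submitters' processing notes name CASAVA 1.8, featureCounts 1.5.0-p3, mm10 and GRCm38.p6. The aligner and the strand setting are not given in the sources used here. The deposited gene table calls its values TPM, but they are not linear, and they are treated as a score: per the values, a score times exon length rises with the logarithm of 1 plus a library factor times a whole number. Whole counts were rebuilt from this relation with GENCODE exon lengths, or with a searched length where that failed (Pcx and Sik1). Within 0.05 of a whole number lay 98.6% of values up to 10 and 93.4% of those over 20000 and up to 200000. The formula is inferred from the values and is not documented. Rebuilt counts depend on it, exceed the depth the study describes, and are not called reads. The deposited transcript and circular RNA tables were not used.

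Tests were run on log2(scaled count + 1) of 25414 of 25415 genes with limma 3.58.1 (R 4.3.3) and Benjamini-Hochberg adjustment over all genes at 0.05. A 24-h cosinor with a term per regimen gave rhythm, peak, amplitude and daily mean, and a fit with 14 group means gave single times. The code was tested on simulated data. Python 3.11.15, numpy 2.4.6, pandas 2.3.3 and scipy 1.17.1 were used otherwise. Groups came from the labels, which give no batch or date, and each library is taken as 1 animal. The genes named are the 10 listed. From each wider list they are the 4 with the smallest adjusted p for the rhythm difference at the same zeitgeber time and at most 3 phase-locked genes, and for each of the 10 the 3 genes with the likest group means, of which some are not reported here. The 10 genes, the lists and the tests were chosen with earlier results of these data known. Alternatives were the values as deposited, median-of-ratios scaling, a pseudocount of 0.1, a filter at a mean scaled count of 1, an exon length correction, a replicate block, omission of the ZT24 libraries or of single libraries, a rank test for rhythms, a mean-variance trend, and a cosinor on scaled counts.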

Additional observations from a re-analysis of the deposited data

Results flagged for a closer look

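In 6 of 140 groups of 4 livers, 1 liver stood far from the other 3 by Dixon's criterion, and chance alone gives about 5% of groups. For Sik1 this was NRF ZT12 replicate 1, at 15.4 scaled counts against 34.0 to 35.1 in the others, and NRF ZT24 replicate 4, at 12.3 against 16.8 to 17.8. Slc37a4 in NRF ZT16 replicate 3 was at 33.1 against 49.9 to 52.0, and that library was also 1 of the 2 least like their group across genes. Fbp1 in DRF ZT24 replicate 1 was at 2031 against 2666 to 2792, which is the liver that made the DRF and NRF values of Fbp1 overlap at ZT24. Creb3l3 in NRF ZT8 replicate 3 was at 147 against 187 to 195, and Gcgr in DRF ZT24 replicate 2 at 54.3 against 61.6 to 62.0.

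The difference between DRF and NRF depended on the time of day for 9 of the 10 genes by the limma test of the rhythm difference, which 38.5% of all genes passed. The adjusted p was 1.95e-12 for Creb3l3, 3.08e-10 for Pck1, 2.57e-09 for Sik1, 3.82e-09 for Crem and 1.84e-08 for Ppargc1a. It was 2.20e-06 for Slc37a4, 2.33e-05 for Gcgr, 0.00143 for Pcx and 0.0130 for Fbp1.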

How the results depend on the processing

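No difference in daily mean or at a single time that passed the test for the 10 genes changed direction under the alternatives run. Of the results for single genes recomputed under other settings, 1046 kept their side of the threshold, 31 gained it and 23 lost it, and without single libraries 7119 kept it, 75 gained it and 86 lost it. With an exon length correction 14125 of all 25414 genes differed at the same feeding phase, against 8637. The share of 34% set beside the 10 genes and the wider lists was obtained without this correction. For the control of ZT24 against ZT0, the count under DRF was 2 genes in place of 1 with the values as deposited and with the exon length correction. Under NRF it was 6 in place of 1 with the values as deposited, and it lay between 0 and 1 without single libraries, with 0 without NRF ZT0 replicate 2 or NRF ZT24 replicate 4. The share of all genes that differed in this control under those settings is not given here. Whether these counts are particular to the 10 genes was not tested. Without single libraries, the other counts lay between 7 and 9 (DRF rhythm), 9 and 9 (NRF rhythm), 9 and 10 (same zeitgeber time), 5 and 6 (same feeding phase), 3 and 5 (daily mean) and 34 and 40 (single times). Over all genes the rhythm counts lay between 8346 and 9150 (DRF) and between 10425 and 11313 (NRF). They lay between 9522 and 9951 (same zeitgeber time), 8274 and 9080 (same feeding phase) and 1433 and 1889 (daily mean). The cause of these changes was not tested. Precision is limited by 4 livers per group, and what depth limits could not be judged from rebuilt counts.

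Same-numbered replicates were taken as different animals. The deviations of same-numbered livers from their group means correlated at 0.0053 on average over 364 pairs, with 9.89% of pairs above 0.1. For pairs with other numbers these values were -0.0017 and 8.97%. The best match had the same number for 17 of 56 livers. Pairing by number was thus not seen, and whether same-numbered livers shared a batch was not tested. With a replicate block the counts were 9 genes (DRF rhythm), 9 (NRF rhythm), 10 (same zeitgeber time), 6 (same feeding phase), 4 (daily mean) and 37 (single times). For the daily mean, Pck1 was lost under the block (limma adjusted p = 0.0521) and G6pc gained (0.0256), and at single times G6pc gained ZT4 (0.0440). Without NRF ZT12 replicate 3 and NRF ZT16 replicate 3, an alternative chosen after seeing the data, they were 9, 9, 10, 5, 5 and 36. The shares of all genes called under the block and without both libraries are not given here. Whether these counts are particular to the 10 genes was not tested.

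Among other single calls, the DRF rhythm of G6pc passed with the values as deposited (limma adjusted p = 0.0162), the filter (0.0403), the exon length correction (0.0303) and the block (0.0311). Pcx lost its rhythm difference at the same zeitgeber time with the values as deposited (0.0979), and Gcgr lost its difference at the same feeding phase there (0.393). Ppargc1a gained a difference at the same feeding phase with the values as deposited (0.0109) and without the ZT24 libraries (0.0354), and Pcx with the values as deposited (0.000476) and with median-of-ratios scaling (0.0262).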
